A study of Mus musculus with 2 samples.

Results

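The 37 genes described here encode plasma proteins, metabolic enzymes and surface receptors made by hepatocytes, the main cell type of the liver: Alb, Ahsg, Apoa1, Apoa2, Ttr, Serpina1a, Fgb, Fga, Fgg, Ambp, Apoh, Apoa5, Apoc3, Apob, Fabp1, Agxt, Arg1, Ass1, Asl, Bhmt, C3, Azgp1, Spp2, Asgr1, Asgr2, Aadac, Sult2a1, Hpx, Trf, Rbp4, Vtn, Itih3, Serpinc1, F2, Plg, Hp and Hpd. They were taken by gene name, with all their transcript models, from 18177 annotated genes with reads, and they had been chosen for their levels in these same libraries, so levels and ratios are given as a description, and the number that pass a test between the libraries is no support for them. Long-read RNA sequencing, in which a single read can span a transcript, was done on adrenal gland tissue of male B6CASTF1/J mice, the F1 hybrid of C57BL/6J and CAST/EiJ, aged 14 days. There were 2 libraries, replicate 2 and replicate 1, in 1 group, for which the labels give no treatment and no altered allele. The labels name a set of 3 males and give both libraries the same donor identifier. They disagree on a further number: the biosample text has 04 for replicate 2 and 03 for replicate 1, while the library text has 03 for both, and the replicate numbers used here come from a separate field. Whether separate animals were used cannot be read from them, so every comparison below is between libraries and its spread may be technical.

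Hepatocytes secrete most of the proteins of blood plasma, among them albumin, the fibrinogen chains, protease inhibitors and the apolipoproteins that carry lipids. They also run the urea cycle, much of amino acid breakdown and conjugation reactions, and they clear desialylated glycoproteins through the asialoglycoprotein receptor. Liver-enriched transcription factors of the HNF1, HNF4, FOXA and C/EBP families are known to act on the promoters of many of these genes. The adrenal gland is an endocrine organ that lies near the liver, with a cortex that makes steroids and a medulla that makes catecholamines.

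The libraries held 1003061 reads in replicate 2 and 981697 in replicate 1. Leaving out spike-ins, 985101 reads in replicate 2 and 964815 in replicate 1 served as the denominators of reads per 1000000 (CPM). A gene with 0 reads could have stood at up to 3.05 CPM in replicate 2 or 3.11 in replicate 1, the level of 3 reads. The tissue label held: the cortex genes Cyp11a1, Star, Cyp11b1 and Cyp21a1 summed to 34078 CPM in replicate 2, against 34193 in replicate 1, and the medulla genes Th, Chga, Chgb and Pnmt summed to 7783 CPM in replicate 2, against 7954 in replicate 1. Within the cortex sum, Cyp11a1 was higher in replicate 2 (ratio of replicate 2 over replicate 1 of 1.16). Star (0.936), Cyp11b1 (0.782) and Cyp21a1 (0.861) were lower in replicate 2. Across all genes, 1017 of 11094 differed between the libraries (exact binomial test with Benjamini-Hochberg adjustment at 0.05). Intervals cover counting error only, since there is 1 library on each side. Because the reads carry no molecular identifiers, repeated copies of 1 molecule could not be told apart, and counting error may be understated.

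The hepatocyte genes were far more abundant in replicate 2 than in replicate 1. Together they had 31210 reads in replicate 2 and 1750 in replicate 1, equal to 31682 CPM (3.17% of reads) in replicate 2, against 1814 (0.181%) in replicate 1, or 16748 ± 21120 CPM (SD, n = 2). The ratio of the sums, replicate 2 over replicate 1 as for all ratios here, was 17.5 (95% exact interval 16.6 to 18.3). In replicate 2, 36 of the 37 genes had reads, all of them at least 10. In replicate 1, 32 had reads and 22 had at least 10. Of the 36 genes with 10 or more reads over both libraries, 34 passed the exact binomial test, all higher in replicate 2, where 9.17% of all genes tested passed, 4.35% higher and 4.81% lower in replicate 2; since the genes were chosen from this contrast, nothing is read from that count. Their median log2 ratio was 4.42, against -0.15 for all genes tested. In bulk tissue, fewer cells of a type and less RNA per cell cannot be told apart.

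**Figure D1:**
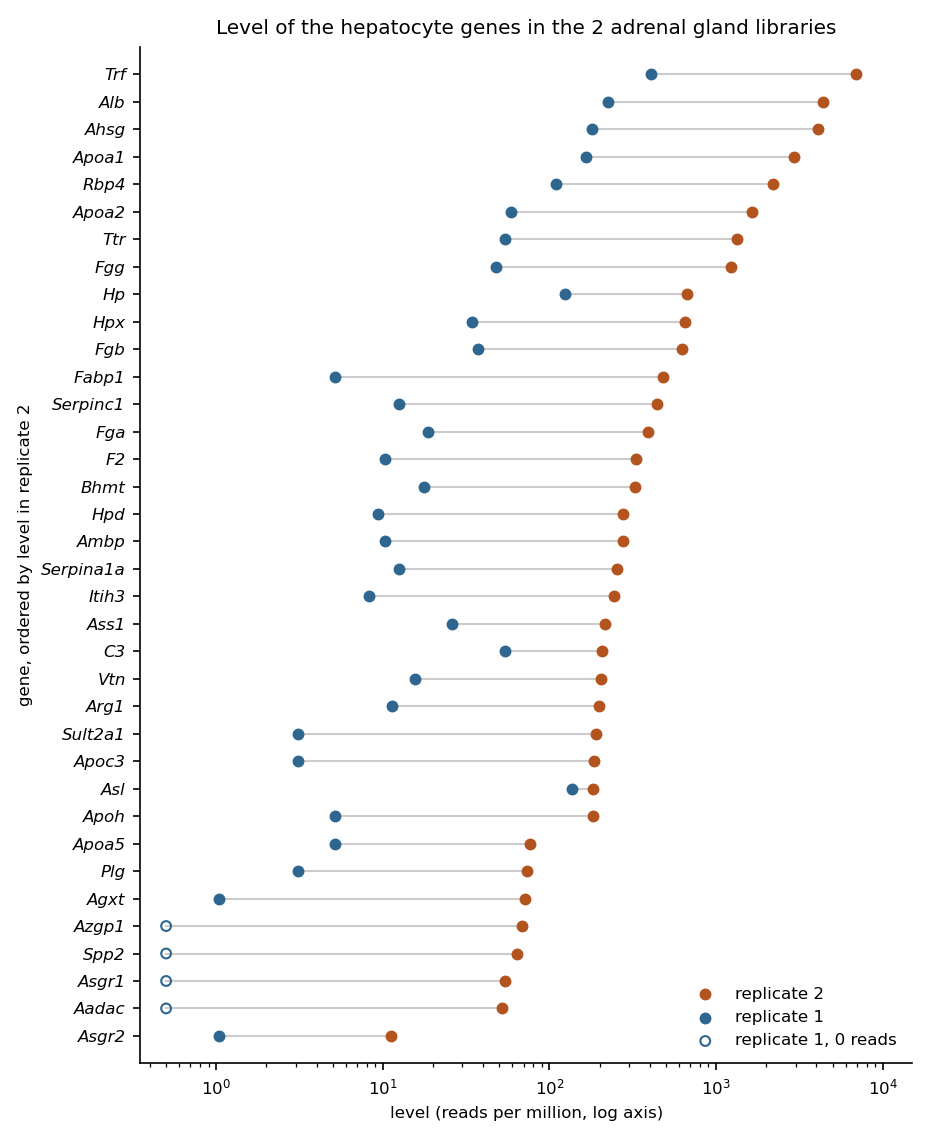
Level of each hepatocyte gene with reads (rows, ordered by replicate 2) in CPM on a log axis, with replicate 2 in orange and replicate 1 in blue; Apob, with 0 reads in both, is not drawn. Each gene lies to the right in replicate 2, the 2 points of Asl lie close together, and the 4 open circles are genes with 0 reads in replicate 1.

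The carrier proteins and globulins of plasma made up most of these reads, at 20614 CPM in replicate 2, against 1144 in replicate 1. Trf, the iron carrier transferrin, had 6775 reads in replicate 2 and 392 in replicate 1 (ratio 16.9, 15.3 to 18.8). It had the most reads of the set in both libraries. Each read was counted as 1 cDNA molecule, so read counts were not divided by transcript length. Alb, serum albumin, had 4327 reads in replicate 2 and 218 in replicate 1 (ratio 19.4, 17.0 to 22.4). Ahsg, the mineral-binding glycoprotein fetuin-A, had 4026 reads in replicate 2 and 174 in replicate 1 (ratio 22.7, 19.5 to 26.5), Rbp4, the retinol carrier, 2166 reads in replicate 2 and 105 in replicate 1 (20.2, 16.6 to 24.8), and Ttr, which carries thyroid hormone and binds Rbp4, 1317 reads in replicate 2 and 52 in replicate 1 (24.8, 18.8 to 33.4). The intervals of Ahsg and Ttr lay above that of Trf, and those of the other pairs among these 5 genes overlapped. Hpx, which binds haem, had 638 reads in replicate 2 and 33 in replicate 1 (18.9, 13.3 to 27.7), and Ambp, the precursor of alpha-1-microglobulin and bikunin, 272 reads in replicate 2 and 10 in replicate 1 (26.6, 14.3 to 56.2). Hp, haptoglobin, which binds free haemoglobin, stood apart with 656 reads in replicate 2 and 120 in replicate 1, a ratio of 5.35 (4.40 to 6.56) whose interval lay below those of the other carriers with reads in both libraries. Azgp1, a zinc-binding glycoprotein, had 67 reads in replicate 2 and Spp2, a secreted phosphoprotein, 63, against 0 in replicate 1 for both, so they were at least 21.9-fold and 20.6-fold higher in replicate 2, with 3 reads in replicate 1 as the limit of a count of 0.

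Among the apolipoproteins and lipid-binding proteins, Apoa1 and Apoa2, the main proteins of high-density lipoprotein, were the most abundant. Apoa1 had 2877 reads in replicate 2 and 160 in replicate 1 (ratio 17.6, 15.0 to 20.8). Apoa2 had 1626 reads in replicate 2 and 57 in replicate 1 (27.9, 21.5 to 37.1), and the intervals of the pair did not overlap. Fabp1, the fatty acid binding protein of liver and intestine, had 475 reads in replicate 2 and 5 in replicate 1, the highest ratio among the 32 genes with reads in both libraries (93.0, 39.6 to 288). Apoc3, an inhibitor of lipoprotein lipase, had 182 reads in replicate 2 and 3 in replicate 1 (59.4, 20.0 to 291), and Apoh, a phospholipid-binding glycoprotein, 179 reads in replicate 2 and 5 in replicate 1 (35.1, 14.7 to 109). Apoa5, an activator of plasma triglyceride breakdown, had 75 reads in replicate 2 and 5 in replicate 1 (14.7, 6.02 to 46.6). Apoa1, Apoc3 and Apoa5 neighbour each other on chromosome 9 (chr9:46228580-46230466, chr9:46232933-46235636 and chr9:46268633-46271919), and the intervals of their ratios overlapped. Apob, the large structural protein of very-low-density lipoprotein, had 0 reads in both libraries on its own strand; its annotated transcript Apob-202 is 13934 bases long, while the longest transcript with reads in the set, that of C3, is 5136 bases long.

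Coagulation factors, protease inhibitors and complement gave 3996 CPM in replicate 2, against 219.7 in replicate 1. The 3 fibrinogen chains, which assemble into the clotting protein, sit side by side on chromosome 3. Fgg (chr3:83007724-83015049) had 1212 reads in replicate 2 and 46 in replicate 1 (ratio 25.8, 19.2 to 35.4). Fgb (chr3:83040141-83049863) had 616 reads in replicate 2 and 36 in replicate 1 (16.8, 11.97 to 24.2) and Fga (chr3:83026076-83033627) 384 reads in replicate 2 and 18 in replicate 1 (20.9, 13.04 to 35.6), so the 3 intervals overlapped. Serpinc1, the thrombin inhibitor antithrombin, had 435 reads in replicate 2 and 12 in replicate 1 (35.5, 20.1 to 69.2). F2, prothrombin, had 325 reads in replicate 2 and 10 in replicate 1 (31.8, 17.1 to 67.0), and Plg, the fibrinolytic proenzyme plasminogen, had 72 reads in replicate 2 and 3 in replicate 1 (23.5, 7.73 to 117). Serpina1a, an alpha-1-antitrypsin, had 249 reads in replicate 2 and 12 in replicate 1 (20.3, 11.4 to 39.9); its near-identical copies leave the split of reads among them uncertain. Itih3, a heavy chain that is linked to hyaluronan, had 239 reads in replicate 2 and 8 in replicate 1 (29.3, 14.6 to 68.6), and Vtn, the adhesion protein vitronectin, 201 reads in replicate 2 and 15 in replicate 1 (13.1, 7.77 to 23.9). C3, the central complement component, which many tissues make, had 203 reads in replicate 2 and 52 in replicate 1, a ratio of 3.82 (2.81 to 5.29) and the lowest of this group.

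Among the enzymes the highest and the lowest ratio lay further apart, as a fold, than in the other groups. Bhmt, which remethylates homocysteine, had 320 reads in replicate 2 and 17 in replicate 1 (18.4, 11.3 to 32.04), Hpd, of tyrosine breakdown, 273 reads in replicate 2 and 9 in replicate 1 (29.7, 15.4 to 65.7), and Sult2a1, a sulfotransferase for steroids and bile acids that has close paralogs, 187 reads in replicate 2 and 3 in replicate 1 (61.0, 20.6 to 299). Agxt, which detoxifies glyoxylate, had 70 reads in replicate 2 and 1 in replicate 1 (68.6, 11.9 to 2746). Aadac, a lipid deacetylase, had 51 reads in replicate 2 and 0 in replicate 1, at least 16.6-fold higher in replicate 2. The urea cycle enzymes differed among themselves. Arg1, arginase, which ends the cycle, had 196 reads in replicate 2 and 11 in replicate 1 (17.5, 9.54 to 35.5). Ass1, argininosuccinate synthase, had 212 reads in replicate 2 and 25 in replicate 1 (8.31, 5.47 to 13.1), and Asl, argininosuccinate lyase, 180 reads in replicate 2 and 132 in replicate 1 (1.34, 1.06 to 1.68). The intervals of Asl, Ass1 and C3 lay wholly below the median ratio of the set, and that of Asl lay below those of all other genes but Asgr2, whose interval was very wide. The receptor subunits were scarce: Asgr1 had 53 reads in replicate 2 and 0 in replicate 1, at least 17.3-fold higher, and Asgr2 had 11 reads in replicate 2 and 1 in replicate 1 (10.8, 1.57 to 464).

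Over the 32 genes with reads in both libraries, ratios ranged from 1.34 for Asl to 93.0 for Fabp1. The median ratio was 20.6, the middle range (25th to 75th percentile) was 16.9 to 29.4, and 24 ratios lay between 10 and 40. The interval held the median for 25 of these 32 genes. It lay above for Apoa2 and Fabp1 and below for Trf, Hp, C3, Ass1 and Asl. Levels in the libraries followed each other across these 32 genes (Spearman's rho 0.788, Pearson's r of log2 CPM 0.848, given as a description across genes), and 8 of the 10 highest genes of replicate 2 were among the 10 highest of replicate 1. Without the 9 genes known to be made abundantly outside the liver as well (C3, Hp, Rbp4, Trf, Azgp1, Vtn, Ass1, Asl and Arg1), the sum came to 20865 CPM in replicate 2, against 931 in replicate 1, and the sums had a ratio of 22.4. These 9 include Asl, C3, Hp and Ass1, which had the lowest ratios of the set, while Fabp1, of liver and intestine, was kept. The higher ratio thus follows in part from the choice of genes, and nothing is read from it.

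**Figure D2:**
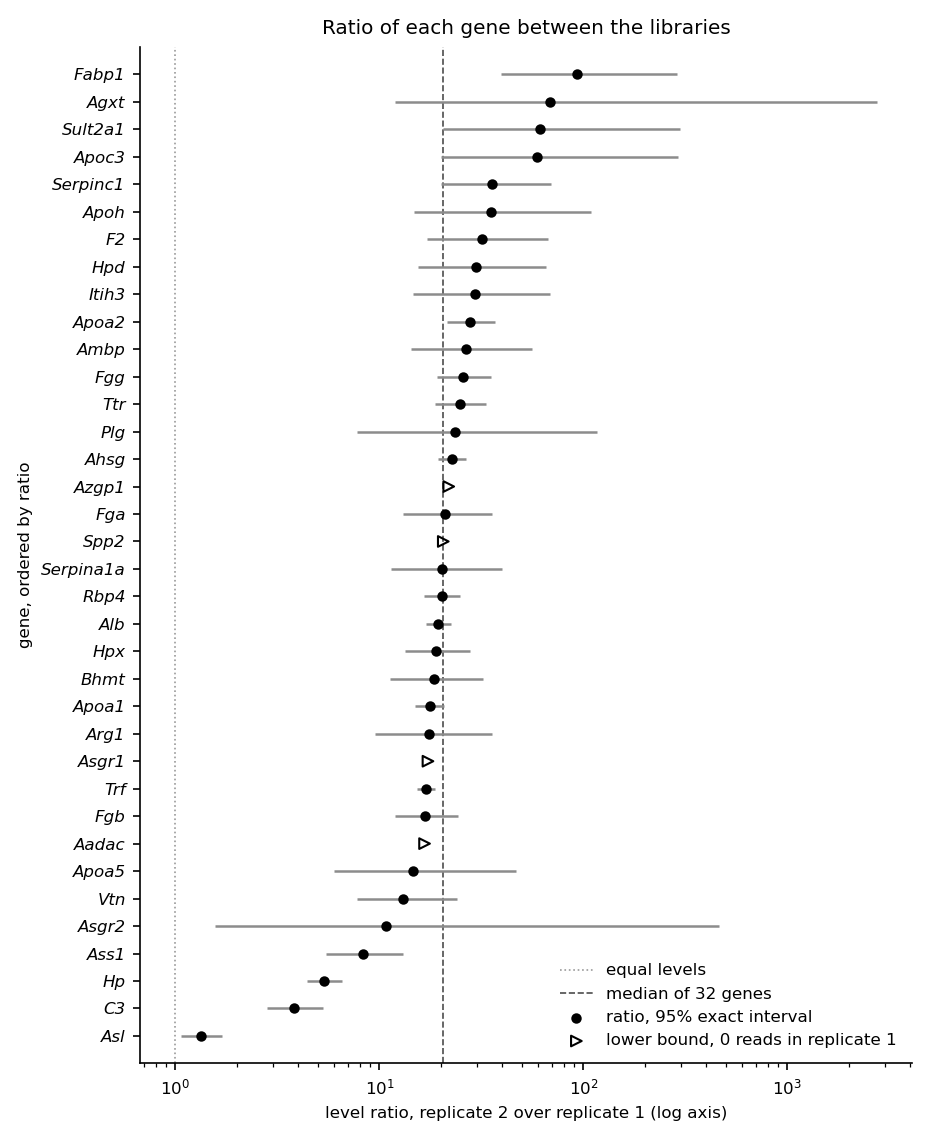
Level ratio of each gene, replicate 2 over replicate 1, on a log axis, with 95% exact intervals as bars, the median of 20.6 as a dashed line and equal levels as a dotted line; open triangles are lower bounds for the 4 genes with 0 reads in replicate 1. Most intervals cross the dashed line, while those of Trf, Ass1, Hp, C3 and Asl lie left of it and Asl lies near 1.

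Genes of the same pathways that are not in the set, taken from lists chosen with earlier results of these data known, were counted in the same way against the 4.35% of all genes that were higher in replicate 2. Of 11 further coagulation genes tested, 10 were higher in replicate 2 and 1 gave no call, with a median log2 ratio of 4.06. Kng1, the bradykinin precursor, had 642 reads in replicate 2 and 36 in replicate 1. All 15 tested inhibitors and carriers were higher in replicate 2 (median 4.06), among them the alpha-1-antitrypsin copy Serpina1b with 654 reads in replicate 2 and 28 in replicate 1 and the vitamin D carrier Gc with 580 reads in replicate 2 and 22 in replicate 1. Serpina1c, Serpina1d and Serpina1e are further copies on this list, and how reads split between these copies and Serpina1a of the set is uncertain. All 12 tested enzymes of nitrogen and amino acid metabolism were higher (median 4.23), for example the urea cycle's entry enzyme Cps1 with 203 reads in replicate 2 and 7 in replicate 1, and Mat1a, which makes S-adenosylmethionine, with 452 reads in replicate 2 and 32 in replicate 1. Of 7 lipoprotein genes 6 were higher (median 3.67), with Apof at 108 reads in replicate 2 and 4 in replicate 1. The median of the set itself was 4.42. The minimum of 10 reads over both libraries, used for all lists, can be met through replicate 2 alone. Cpb2, for example, had 33 reads in replicate 2 and 0 in replicate 1. With a minimum of 1 read, 10 of 15 coagulation genes were higher in replicate 2 (median 3.67), and 15 of 17 inhibitors and carriers (3.60). So were 12 of 14 enzymes of nitrogen and amino acid metabolism (3.98) and 6 of 9 lipoprotein genes (3.67), against 438 of 18177 genes.

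Other hepatocyte-related lists were mixed, and several of their genes were abundant in both libraries. Of 13 tested complement genes, 8 were higher in replicate 2 and 5 gave no call (median log2 ratio 2.69); C4b had 131 reads in replicate 2 and 120 in replicate 1. Of 6 tested carbohydrate enzymes, 3 were higher in replicate 2, among them Fbp1 with 127 reads in replicate 2 and 6 in replicate 1, while Pck1, the first committed enzyme of gluconeogenesis, was lower in replicate 2 with 490 reads against 595 in replicate 1, a call that was lost under TMM and median-of-ratios scaling (median of the list 1.45). Of 5 tested bile acid and transport genes, 3 were higher (median 3.18), and the steroid reductase Akr1d1 had 286 reads in replicate 2 and 262 in replicate 1. Of 7 tested transcription factors (median 1.90), 3 were higher: Creb3l3 with 64 reads in replicate 2 and 3 in replicate 1, Foxa3 with 27 reads in replicate 2 and 1 in replicate 1, and Hnf4a, a defining factor of hepatocytes, with 14 reads in replicate 2 and 0 in replicate 1. Cebpa had 122 reads in replicate 2 and 138 in replicate 1. Of 4 tested acute phase genes (median 2.58), 2 were higher, Serpina3n with 34 reads in replicate 2 and 2 in replicate 1 and Fgl1 with 26 reads in replicate 2 and 1 in replicate 1. The 1 fetal liver gene tested, Gpc3, gave no call with 32 reads in replicate 2 and 26 in replicate 1, while Afp, too low to test, had 1 read in replicate 2 and 3 in replicate 1.

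Genes known from the zones of the liver lobule gave no single picture. Of 5 tested genes listed as periportal (median log2 ratio 2.95), 3 were higher in replicate 2 and Pck1, given above, was lower; Gls2 had 66 reads in replicate 2 and 7 in replicate 1, while Cyp2f2, which gave no call, had 593 reads in replicate 2 and 642 in replicate 1. Of 6 tested pericentral genes, 4 were higher and 1 lower (median 2.67). Cyp2e1 had 190 reads in replicate 2 and 23 in replicate 1, Cyp1a2 had 44 reads in replicate 2 and 1 in replicate 1, and Glul, glutamine synthetase, was lower with 118 reads in replicate 2 and 175 in replicate 1. The call for Glul, like that for Pck1, was lost under TMM and median-of-ratios scaling. Several of these medians depended on genes with few reads. With a minimum of 50 reads over both libraries in place of 10, the median log2 ratio was 0.72 for complement (5 of 9 higher in replicate 2 and 1 lower), 0.29 for bile acid and transport (0 of 2 called), 0.52 for transcription factors (1 of 3 higher), -0.14 for periportal genes (1 of 3 higher and 1 lower) and 1.01 for pericentral genes (2 of 4 higher and 1 lower), and no acute phase gene was left to test. With known models only, the median was 2.10 for bile acid and transport (2 of 4 higher), 0.46 for transcription factors (1 of 3 higher) and 1.79 for acute phase genes (0 of 2 called).

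Markers of further liver cells and of neighbouring organs were few. The stellate cell list summed to 14 reads in replicate 2 and 0 in replicate 1, 10 of them from Colec11, with Lrat and Hgf at 0. The Kupffer cell list summed to 17 reads in replicate 2 and 21 in replicate 1, with Clec4f at 7 reads in replicate 2 and 0 in replicate 1, and Marco at 1 read in replicate 2 and 11 in replicate 1. The cholangiocyte list had 92 reads in replicate 2 and 31 in replicate 1, of which the secreted protein Spp1 gave 83 reads in replicate 2 and 27 in replicate 1, while Epcam was at 0. The liver sinusoid list had 16 reads in replicate 2 and 18 in replicate 1. Exocrine pancreas (6 reads in replicate 2 and 1 in replicate 1), kidney (4 reads in replicate 2 and 2 in replicate 1) and intestine (17 reads in replicate 2 and 5 in replicate 1) had few reads, 13 of the intestinal ones in replicate 2 and 1 in replicate 1 from Fabp2, with Umod, Slc34a1, Pnlip, Sis and Cdx2 at 0 in both libraries. Their part in the levels of the hepatocyte genes was not tested.

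Promoters of members were compared by sequence, as a description of the set. Whether promoter sequence bears on the difference between the libraries was not tested. RefSeq windows (build GRCm38.p6, 300 bases each) ran from upstream of the RefSeq start to just past it. Windows of 29 of the genes, 33 windows in all, were searched on both strands for 5 kinds of motif. Ttr, Trf, Apoc3, Arg1, Asl, Hp, Sult2a1 and Plg were not searched, so the motif counts do not cover them. Windows were placed by RefSeq starts, not by where reads began. The only Serpinc1 window (chr1:160978333-160978632) lies at the annotated start of the gene. Of 344 Serpinc1 reads in replicate 2 that ran unbroken to the last exon, 2 began in exon 1 and 305 in exon 2. The HNF1 motif GTTAATNAT was in windows of 2 of the 29 genes, against 0.801% of all 32851 windows; the HNF4 motifs CAAAGTCCA or CAAAGGTCA were in 1 (0.9497% of all). The FOXA motifs TGTTTAC or TGTTTGC were found in 11 genes (8.48% of all windows), the C/EBP motifs TTGCGCAA or TTGCAAT in 3 (2.40%) and TATAAA in 8 (13.6%). A gene could hold more than 1 window, and a match is a description of the letters, not a site. The windows that held the HNF1 or HNF4 motif are shown with matches to any of the motifs in capitals. In the Alb window (chr5:90460620-90460919, plus strand) the FOXA match starts at position -128 and the HNF1 match at position -32 relative to the RefSeq start; in Fga (chr3:83025903-83026202, plus strand) the HNF1 match starts at -46; in Bhmt (chr13:93637709-93638008, minus strand) the HNF4 match starts at -50.
Alb: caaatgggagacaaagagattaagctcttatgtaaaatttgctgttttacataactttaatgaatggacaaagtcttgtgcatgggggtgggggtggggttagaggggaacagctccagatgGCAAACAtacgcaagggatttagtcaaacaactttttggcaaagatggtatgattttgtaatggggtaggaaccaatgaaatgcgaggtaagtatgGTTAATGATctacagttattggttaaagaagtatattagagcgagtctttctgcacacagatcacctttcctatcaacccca
Fga: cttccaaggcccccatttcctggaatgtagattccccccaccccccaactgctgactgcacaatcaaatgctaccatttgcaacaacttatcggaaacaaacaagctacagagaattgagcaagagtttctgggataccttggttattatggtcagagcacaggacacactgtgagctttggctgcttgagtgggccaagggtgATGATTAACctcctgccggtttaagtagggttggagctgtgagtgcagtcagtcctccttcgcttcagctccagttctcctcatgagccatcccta
Bhmt: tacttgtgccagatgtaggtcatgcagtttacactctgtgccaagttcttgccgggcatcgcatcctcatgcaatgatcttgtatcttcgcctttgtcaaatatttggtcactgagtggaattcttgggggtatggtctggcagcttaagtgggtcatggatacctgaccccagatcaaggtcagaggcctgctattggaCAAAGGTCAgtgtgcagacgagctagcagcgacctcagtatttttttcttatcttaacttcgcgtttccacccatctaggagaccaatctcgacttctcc

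Reads were then compared by how much of each transcript they held. A read was counted as full-splice when its model was an annotated transcript or held a chain of introns absent from the annotation. It was counted as partial when its introns were only part of an annotated chain or when it had a single exon. New chains were not checked for completeness, and short annotated transcripts, such as Aadac-202 with 2 exons, count as full-splice. Of all reads of the set, 73.2% (95% Wilson interval 72.7 to 73.7) were full-splice in replicate 2 and 80% (78.1 to 81.8) in replicate 1, where all annotated genes had 80.4% in replicate 2 and 84.0% in replicate 1. For the 22 genes that had 10 or more reads in each library, the median was 87.9% in replicate 2 and 88.9% in replicate 1, against 85.8% in replicate 2 and 88.9% in replicate 1 for 8215 genes. Ahsg and Alb, which are among the genes with most reads, lay far below that median at 29.0% and 57.5% in replicate 2. The share was higher in replicate 2 for 5 of these 22 genes and for 2478 of the 8215 (30.2%). Of the 22 genes 1, Alb, passed Fisher's exact test for a difference in share, where 0.876% of all genes tested passed. That test takes equal shares as its null, so it does not separate Alb from the lower share of all genes in replicate 2. The share of all 36 genes with reads ran from 1.61% for Serpinc1 to 97.3% for Sult2a1 in replicate 2, and 23 were at 80% or more.

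**Figure D3:**
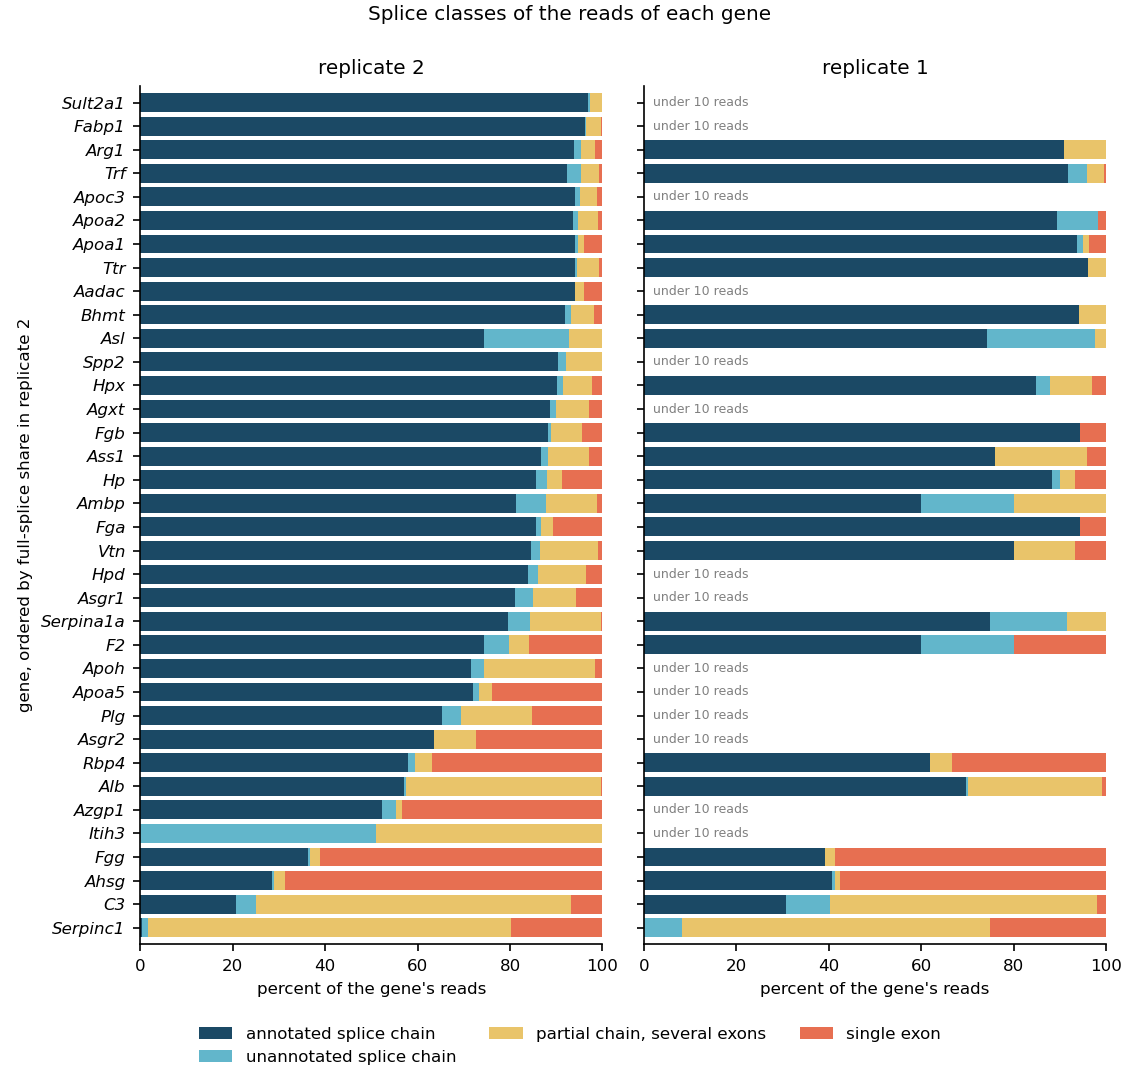
Percent of each gene's reads in 4 splice classes, replicate 2 left and replicate 1 right, for 36 genes ordered by their full-splice share in replicate 2; genes with under 10 reads in replicate 1 are left blank there. Annotated chains (dark blue) fill most bars, Alb, C3 and Serpinc1 are mostly or largely partial chains (yellow), and Ahsg, Fgg and Rbp4 hold many single-exon reads (orange).

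Partial chains with several exons numbered 3451 reads in replicate 2 and 156 in replicate 1, and 98.9% of those in replicate 2 and 98.7% in replicate 1 ran on to the annotated last exon, so they lacked the 5′ part. Alb gave 52.8% of them in replicate 2. Its full-splice share was 57.5% (56.0 to 59.0) in replicate 2 and 70.2% (63.8 to 75.9) in replicate 1, lower by 12.7 percentage points in replicate 2 (adjusted p = 0.0261, Fisher's exact test). The partial Alb chains did not begin evenly along the transcript. Of reads that held an unbroken run of its 15 exons up to the last, 2466 of 4282 in replicate 2 and 152 of 215 in replicate 1 began in exon 1. A further 1113 (25.99%, 24.7 to 27.3) in replicate 2 and 45 (20.9%, 16.03 to 26.9) in replicate 1 began in exon 8, which was 61.3% of the partial reads in replicate 2 and 71.4% in replicate 1. Exon 9 had 166 reads in replicate 2 and 4 in replicate 1, and exon 4 had 142 in replicate 2 and 6 in replicate 1. The deposited model of these exon 8 reads has 1 start, the first base of the exon, in both libraries, so where single reads began within the exon is not known. Exon 8 (chr5:90468481-90468695, plus strand, build GRCm38) is shown in capitals after the last bases of exon 7, as the place where this second group of reads began.
Alb exon 8: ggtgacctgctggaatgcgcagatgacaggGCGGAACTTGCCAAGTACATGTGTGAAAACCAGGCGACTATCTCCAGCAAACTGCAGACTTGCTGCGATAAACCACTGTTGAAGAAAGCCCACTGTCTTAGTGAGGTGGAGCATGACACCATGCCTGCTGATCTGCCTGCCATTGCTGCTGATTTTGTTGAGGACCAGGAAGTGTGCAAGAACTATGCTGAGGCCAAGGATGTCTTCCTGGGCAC

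Trf, with 17 exons and a longer transcript (2571 bases, against 2034 for Alb), showed no such second group: 6254 of 6503 reads in replicate 2 (96.2%) and 360 of 374 in replicate 1 (96.3%) began in exon 1. C3, the longest transcript with reads, with 41 exons, had 68.0% multi-exon partial reads in replicate 2 and 57.7% in replicate 1, and their first exons were spread over the gene, with at most 12 of 180 reads in replicate 2 at any exon beyond the first. Across the 36 genes, the full-splice share in replicate 2 fell with annotated length (Spearman's rho -0.43) and less so with the number of exons (-0.31), as a description over genes of the same library.

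**Figure D4:**
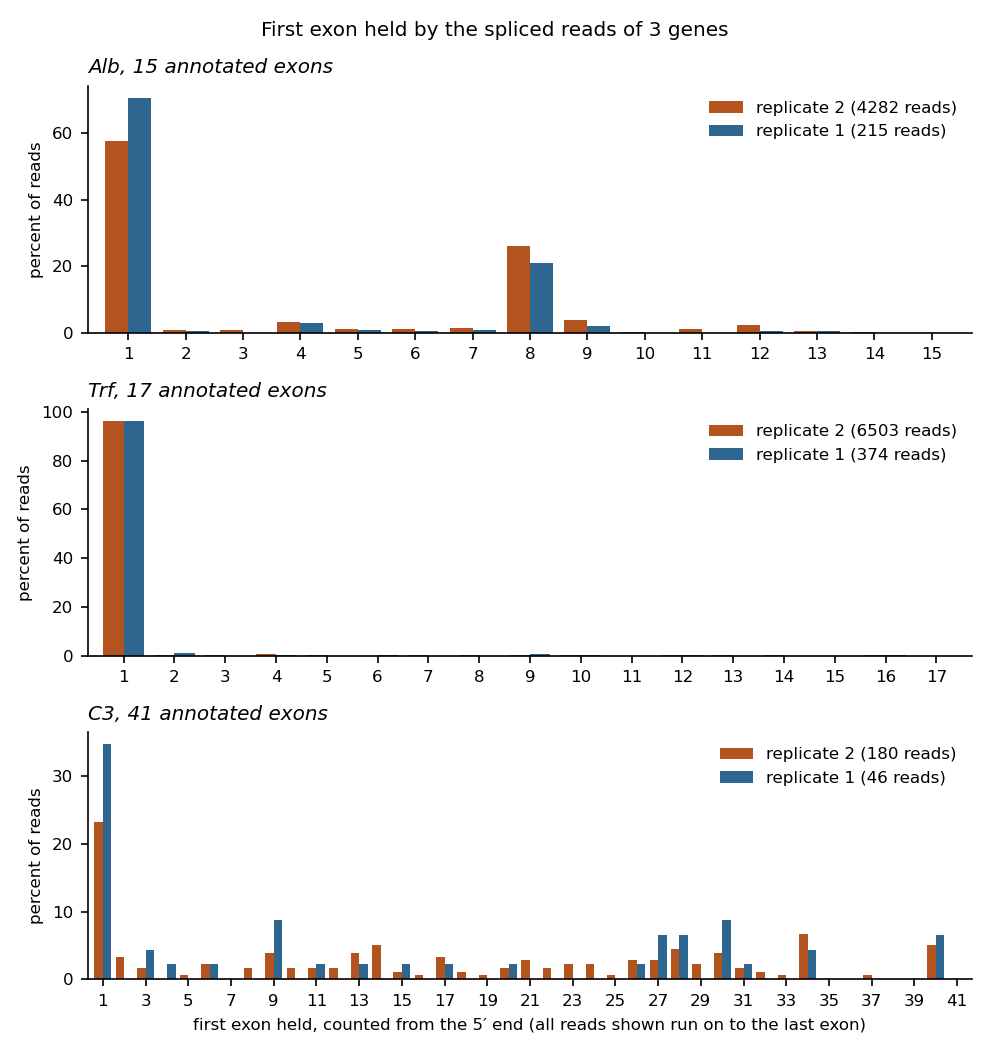
Percent of spliced reads by the first exon they hold, counted from the 5′ end, for Alb, Trf and C3, with replicate 2 in orange left of replicate 1 in blue; all reads shown run on to the last exon. Alb has a second peak at exon 8, Trf has reads at exon 1 and few elsewhere, and C3 reads begin throughout the gene.

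Serpinc1 had the lowest full-splice share, but its reads mostly held the coding part. Its annotated transcript Serpinc1-201 has 8 exons, of which the first holds no coding sequence. Of 435 reads in replicate 2, 305 held exons 2 to 8, as did 6 of 12 in replicate 1, so 70.6% (66.1 to 74.7) of reads in replicate 2 and 50% (25.4 to 74.6) in replicate 1 held all 6 coding introns. Measured in this way, by coding introns of the main transcript, the share over the set was 72.6% in replicate 2 and 77.9% in replicate 1, with a median over 36 genes of 84.6% in replicate 2.

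Single-exon reads numbered 4916 in replicate 2 and 193 in replicate 1, and 87.6% of them in replicate 2 and 83.9% in replicate 1 came from Ahsg, Rbp4 and Fgg. For Ahsg they were 68.7% (67.3 to 70.1) of reads in replicate 2 and 57.5% (50.04 to 64.6) in replicate 1. Its full-splice share was 29.0% in replicate 2 and 41.4% in replicate 1 (adjusted p = 0.0664, Fisher's exact test), so the difference did not pass. The Ahsg model in replicate 2 covered chr16:22898211-22899443, from the edge of exon 6 through the last intron to the end of exon 7, and had 2767 reads. That in replicate 1 covered chr16:22899167-22899443, inside exon 7, and had 100 reads. These are the deposited coordinates of 1 model in each library. Where single Ahsg reads began, and how many held the last intron, is therefore not known. For Fgg, single-exon reads were 61.1% in replicate 2 and 58.7% in replicate 1, most of them in the last exon (chr3:83014835-83015049, 691 reads in replicate 2 and 26 in replicate 1). For Rbp4 they were 36.9% in replicate 2 and 33.3% in replicate 1, held in a model of 800 reads in replicate 2 and 35 in replicate 1 whose deposited coordinates span only 2 bases at the 3′ end of the gene. All 3 genes thus had single-exon reads near the 3′ end in both libraries.

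Isoforms were compared among full-splice reads. Of 12 genes of the set with at least 20 such reads in each library and more than 1 chain, 0 differed in the share of the top chain (Fisher's exact test, adjusted; 0 also at an unadjusted p under 0.05), where 0.125% of all genes tested passed. Most genes used a single annotated transcript. Alb-201 made up 2466 of 2488 full-splice reads of Alb in replicate 2 and 152 of 153 in replicate 1, and Trf-201 made up 6254 of 6460 in replicate 2 and 360 of 376 in replicate 1 for Trf. Apoa1-202, whose introns are the last ones of Apoa1-201, had 139 of 2723 reads (5.10%) in replicate 2 and 7 of 152 (4.61%) in replicate 1, so it cannot be told from a partial read of Apoa1-201 by its introns.

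Reads assigned to the minor form were seen for both fibrinogen chains with alternative coding ends. Fgg-201 ends in the last exon, while Fgg-202 reads on into the last intron and so has another coding end, as the gamma-prime chain known in human does. Fgg-202 had 47 of 446 full-splice reads in replicate 2 (10.5%, 8.02 to 13.7) and 3 of 18 in replicate 1 (16.7%, 5.84 to 39.2). By its introns, it cannot be told from an Fgg-201 read that kept the last intron or ended before it. The coding ends (chr3:83014278-83014849 for Fgg-201 and chr3:83014278-83014343 for Fgg-202, plus strand) are shown from the last 30 bases both share, with the transcript's own coding bases, stop codon included, in capitals.
Fgg-201: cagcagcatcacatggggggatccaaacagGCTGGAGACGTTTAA
Fgg-202: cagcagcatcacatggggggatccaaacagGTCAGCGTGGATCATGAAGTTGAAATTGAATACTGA

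Fga-202 splices out of exon 5 into a further exon, as the extended alpha-E chain known in human does. It had 20 of 333 full-splice reads in replicate 2 (6.01%, 3.92 to 9.09) and 2 of 17 in replicate 1 (11.8%, 3.29 to 34.3). The intervals of the libraries overlapped for both genes. Fga-201 ends 14 coding bases after the point where the forms part, while Fga-202 goes on for 710. The bases around that point (chr3:83031950-83031993 for Fga-201 and chr3:83031950-83032730, across the intron, for Fga-202, plus strand) are shown with up to 30 transcript-specific coding bases in capitals.
Fga-201: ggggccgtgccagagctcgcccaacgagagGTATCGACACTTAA
Fga-202: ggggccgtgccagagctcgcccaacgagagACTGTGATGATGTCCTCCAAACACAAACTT

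The annotated Rbp4 transcripts with full-splice reads began in different first exons. Rbp4-202 had 1246 of 1288 full-splice reads in replicate 2 (96.7%, 95.6 to 97.6) and 63 of 65 in replicate 1 (96.9%, 89.5 to 99.2). Rbp4-201, which begins further upstream and is annotated with its own start codon in exon 1, had 10 reads in replicate 2 and 2 in replicate 1. The coding starts are shown with the coding bases of exon 1 of Rbp4-201 in capitals (chr19:38124618-38125068, minus strand), followed by the first bases of the shared exon 2, and with the start codon of Rbp4-202 in exon 2 in capitals (chr19:38124600-38124629).
Rbp4-201: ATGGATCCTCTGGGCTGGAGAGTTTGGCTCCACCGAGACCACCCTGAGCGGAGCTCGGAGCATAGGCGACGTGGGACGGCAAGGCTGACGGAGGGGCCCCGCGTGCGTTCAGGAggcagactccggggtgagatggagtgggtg
Rbp4-202: ATGgagtgggtgtgggcgctcgtgctgctg

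Of the RefSeq windows of Rbp4, the one at the first exon of the dominant Rbp4-202 (chr19:38124762-38125061, minus strand) held TATAAA from position -28, and the upstream one (chr19:38125272-38125571) held a FOXA match from position -241. Both are shown with the matches in capitals.
Rbp4-202 window: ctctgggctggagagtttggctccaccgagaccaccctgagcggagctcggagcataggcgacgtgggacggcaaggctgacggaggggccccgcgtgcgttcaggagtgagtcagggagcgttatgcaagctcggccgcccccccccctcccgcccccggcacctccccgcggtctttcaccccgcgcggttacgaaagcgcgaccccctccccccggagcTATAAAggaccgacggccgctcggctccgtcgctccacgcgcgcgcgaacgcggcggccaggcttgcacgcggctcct
Upstream window: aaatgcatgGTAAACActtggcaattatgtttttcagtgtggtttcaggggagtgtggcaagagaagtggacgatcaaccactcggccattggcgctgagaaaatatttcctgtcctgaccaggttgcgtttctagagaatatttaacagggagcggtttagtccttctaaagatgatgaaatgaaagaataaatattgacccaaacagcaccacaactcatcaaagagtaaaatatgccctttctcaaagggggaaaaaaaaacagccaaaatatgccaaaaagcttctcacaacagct

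Itih3 had 0 reads of an annotated transcript in either library. The annotated Itih3-201 has 22 exons, of which exon 15 is only 3 bases long (chr14:30914049-30914051, minus strand). In the reads, 141 in replicate 2 and 5 in replicate 1 joined the neighbouring exons directly, across chr14:30913194-30914652, and 0 held the small exon. For replicate 2, the count of 0 allows a share of up to 2.13% of these reads, by counting error only. Whether the alignment could place an exon of 3 bases was not tested, so skipping of this exon cannot be read from the models. The most frequent full-splice chain, with 92 reads in replicate 2 and 3 in replicate 1, matched Itih3-201 apart from this exon and had 21 exons. A further 98 reads in replicate 2 and 2 in replicate 1 held only the last 2 exons. The small exon is shown in capitals between the 30 bases on either side in Itih3-201.
Itih3-201: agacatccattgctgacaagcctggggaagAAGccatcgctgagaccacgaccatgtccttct

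Apoa2 and Asl split their reads between annotated forms. Those of Apoa2 are close: Apoa2-204 (chr1:171225054-171226379) has 518 bases and Apoa2-201 (chr1:171225082-171226378) has 492. Both have 4 exons and the same coding introns. Whether the alignment could tell these 2 forms apart was not tested. Apoa2-204 had 767 of 1541 full-splice reads in replicate 2 (49.8%, 47.3 to 52.3) and 31 of 56 in replicate 1 (55.4%, 42.4 to 67.6), and Apoa2-201 had 737 (47.8%) in replicate 2 and 19 (33.9%, 22.9 to 47.0) in replicate 1. Asl-203 had 72 of 167 reads in replicate 2 (43.1%, 35.8 to 50.7) and 64 of 129 in replicate 1 (49.6%, 41.1 to 58.1), and Asl-205 had 62 (37.1%) in replicate 2 and 34 (26.4%) in replicate 1. Intervals overlapped between libraries for the top form of each gene. Asl, whose level was close to equal in the libraries, also had the largest share of chains absent from the annotation among genes with over 100 full-splice reads in both, with 33 reads (19.8%) in replicate 2 and 31 (24.0%) in replicate 1.

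**Figure D5:**
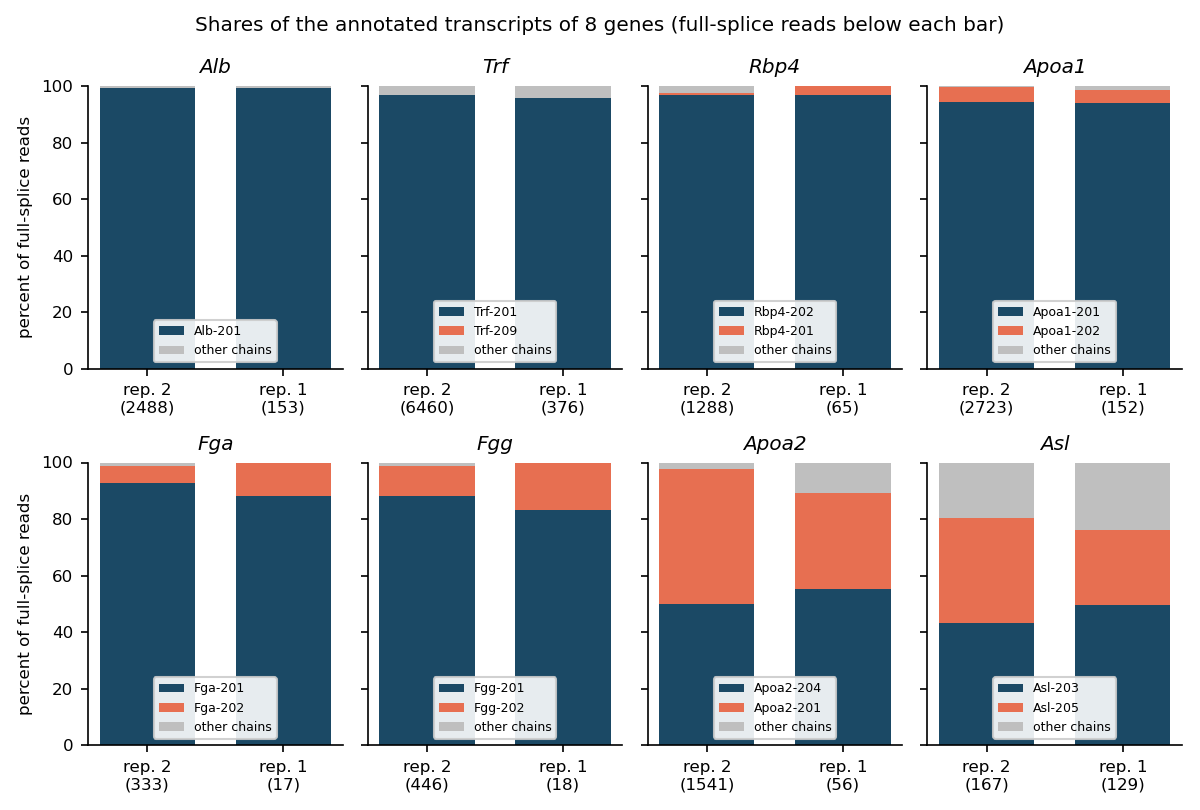
Percent of full-splice reads in the 2 annotated transcripts with most reads (blue and red) and in other chains (grey) for 8 genes, with replicate 2 left of replicate 1 and the number of full-splice reads under each bar. Alb, Trf, Rbp4 and Apoa1 are mostly 1 transcript, Fga and Fgg have a minor second form, and Apoa2 and Asl are split.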

How the data were processed

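Long-read RNA sequencing of 2 adrenal gland libraries, replicate 2 and replicate 1 of 1 group, was analysed. The deposited tables give, per library and transcript model, whole-number read counts that are not normalized. Models were annotated with TALON against build mm10 and GENCODE M21, per the file headers; the aligner and version numbers were not given in the sources used here. Counts were summed per gene over all models and divided by reads outside the ERCC spike-ins to give CPM. Further synthetic spike-ins named in the labels were not analysed.

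With 1 library on each side, edgeR's quasi-likelihood test could not be fitted. Genes whose reads over both libraries numbered 10 or more were compared by an exact two-sided binomial test, full-splice shares (10 reads in each library) and the share of the top intron chain (20 full-splice reads in each) by Fisher's exact test, all with Benjamini-Hochberg adjustment over all genes at a threshold of 0.05. These tests compare libraries, not conditions. Ratios have 95% Clopper-Pearson intervals and shares Wilson intervals; log2 ratios had 0.5 reads added. The methods were tested on simulated data. Depth was 1003061 reads in replicate 2 and 981697 in replicate 1.

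The genes and the further lists were chosen with earlier results of these data known. All 37 genes are named. Of each list, names come from the 6 genes with the most reads over both libraries and from cell type markers. Cpb2 and Serpina1e, which have fewer reads, were named in addition. The examples were picked with their values in view. Alternatives were TMM factors (edgeR 4.0.16), median-of-ratios factors (DESeq2 1.42.0), annotated reads as denominator, known models only, models with at least 2 reads, other count minimums and subsets of genes. R 4.3.3, Python 3.11.15, numpy 2.4.6, scipy 1.17.1, pandas 2.3.3 and matplotlib 3.10.9 were used. The sequences are those of the C57BL/6J reference, while the mice were F1 hybrids.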

Additional observations from a re-analysis of the deposited data

Results flagged for a closer look

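Models on the strand opposite to the hepatocyte genes, which enter none of the comparisons, held 51 reads in replicate 2 and 18 in replicate 1. They lay over 12 genes in replicate 2 and 4 in replicate 1. Asl had 19 such reads in replicate 2 and 15 in replicate 1, Alb had 11 in replicate 2 and 0 in replicate 1, Hpx had 5 in replicate 2 and 0 in replicate 1, and Ass1 had 5 in replicate 2 and 1 in replicate 1.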

How the results depend on the processing

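No paired analysis was possible because both libraries belong to 1 group. Under TMM scaling 878 of 11094 genes tested differed, 673 higher in replicate 2 and 205 lower (76.7% of calls higher, against 47.5% with CPM). Under median-of-ratios scaling 867 of 11094 differed, 607 higher and 260 lower (70.0% higher). These scalings moved the median log2 ratio of all genes by 0.16 and 0.11, and under both all 36 tested hepatocyte genes were called, Asl and Asgr2 included. Since the hepatocyte genes were chosen from this contrast, nothing is read from that count. The summed level was 31682 CPM without replicate 1 and 1814 CPM without replicate 2, and the full-splice share was 73.2% without replicate 1 and 80% without replicate 2. With known models only, 43 genes differed in full-splice share, against 72; Alb passed under each setting tried (adjusted p 0.0198 to 0.0357). With known models only the ratios of Alb, Ahsg and C3 were 16.6, 16.5 and 2.68, and with TMM that of Trf was 18.9; 150 of the 154 ratios recomputed stayed within the counting interval. Under the other scalings, denominator and choices of models, the median ratio of the set was 19.3 to 23.0. Its median log2 ratio was 4.37 to 4.67, the highest without the genes made outside the liver, which include those with the lowest ratios. Depth limits genes with few reads in replicate 1, whose intervals are wide.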
